A study of Mus musculus with 4 samples.

Results

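miR-106b, miR-93 and miR-25 are 3 miRNAs cut from 1 primary transcript of the miR-106b-93-25 cluster. They were taken from the table of mature miRNA levels by name (mmu-miR-106b, mmu-miR-93 and mmu-miR-25), with or without an arm or star suffix. The rule found 3 probes, 1 for each, among 566 probes for mouse miRNAs and 599 probes in all. No probe for a star or opposite-arm form matched. Levels came from the NanoString nCounter assay, in which each miRNA is tagged with its own colour-coded probe and counted without amplification. WT R1 cells, a mouse embryonic stem cell (ESC) line, were compared with R1 cells in which the 3 DNA methyltransferases DNMT1, DNMT3a and DNMT3b are knocked out (TKO), as 2 replicates per genotype (4 samples). Both were grown on gelatin with serum and leukemia inhibitory factor, and the labels add that all cells were differentiated for 4 days before total RNA was taken. TKO cells are a line made earlier in another laboratory, and how many clones the replicates stand for is not given in the sources used here, so the loss of DNMTs and other differences between the lines cannot be told apart. The probes detect miRNAs only, so the knocked-out genes could not be checked in these samples.

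The cluster lies in an intron of Mcm7, which encodes a subunit of the MCM helicase that unwinds DNA at replication origins. The cluster is a paralog of the miR-17-92 and miR-106a-363 clusters. All of them are known for promoting proliferation, in part by repressing the cell cycle inhibitor Cdkn1a and the proapoptotic gene Bcl2l11, and several of their miRNAs are abundant in ESCs. A miRNA recognises its targets mainly through its seed, bases 2 to 8 from the 5′ end. miR-106b and miR-93 carry the seed of miR-17, whereas miR-25 carries that of miR-92a and miR-32, so 1 transcript supplies miRNAs of both target classes.

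The mature sequences of the cluster and of its seed relatives measured beside it, except miR-92b (miR-25 seed), are shown because the seed sets the groups compared below. They are from RefSeq (GRCm38.p6), with the seed in capitals. The deposited names of the members have no arm suffix, and the arm shown is the one that bore the plain name in older nomenclature.
miR-106b: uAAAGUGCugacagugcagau
miR-93: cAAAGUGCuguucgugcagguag
miR-17: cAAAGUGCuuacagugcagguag
miR-106a: cAAAGUGCuaacagugcagguag
miR-20a: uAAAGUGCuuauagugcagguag
miR-20b: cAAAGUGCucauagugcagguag
miR-25: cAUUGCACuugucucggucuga
miR-92a: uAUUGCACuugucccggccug
miR-32: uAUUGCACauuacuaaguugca
miR-363: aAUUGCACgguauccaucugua
miR-367: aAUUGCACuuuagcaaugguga
Counted from the 5′ end, miR-106b differed from miR-17 at 3 of 21 positions and from miR-93 at 5 of 21. miR-93 differed from miR-20b at 3 of 23 positions, and miR-25 from miR-92a at 3 of 21. miR-25 differed from miR-363 at 13 of 22 positions, so that little beyond the seed was shared. How far a probe also counts near-identical miRNAs was not tested. The deposited table itself names 1 probe for miR-106a and miR-17 together and 1 for miR-20a and miR-20b.

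In GRCm38.p6 the 3 hairpins lie on the minus strand of chromosome 5 within the span of Mcm7 (chr5:138164583-138172111). Exon borders were not analysed here. From the 5′ end of the transcript they are ordered Mir106b (chr5:138165737-138165818), Mir93 (chr5:138165523-138165610) and Mir25 (chr5:138165321-138165404), with gaps of 126 and 118 bases between them. The hairpins are printed 5′ to 3′ with the mature strand shown above in capitals. That strand comes from the 5′ arm of Mir106b and Mir93 and from the 3′ arm of Mir25. It is taken to be the one measured, by its older name only.
Mir106b: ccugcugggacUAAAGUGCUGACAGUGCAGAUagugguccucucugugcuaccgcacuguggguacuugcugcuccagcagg
Mir93: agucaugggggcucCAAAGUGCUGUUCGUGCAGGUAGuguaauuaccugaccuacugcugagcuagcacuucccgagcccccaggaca
Mir25: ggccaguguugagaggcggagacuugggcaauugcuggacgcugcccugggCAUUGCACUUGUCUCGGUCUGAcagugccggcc
CpG, the dinucleotide that DNMTs methylate, occurred 1 time in the hairpin of Mir106b, 2 times in that of Mir93 and 4 times in that of Mir25. The study sorted precursors by where their borders are methylated in ESCs, and it lists the precursors of miR-106b and miR-25 as upstream (methylated at the 5′ border) and that of miR-93 as flat (no difference at the borders). Methylation of these precursors was not analysed here.

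All 3 miRNAs were lower in TKO cells. The miR-106b level fell to 36.8% of its WT mean, the miR-93 level to 47.9% and the miR-25 level to 56.3%. Both TKO values lay below both WT values for each of them, and limma called all 3 lower after adjustment over the 566 mouse probes. In that fit 24 of the 566 mouse probes (4.24%) were called lower, 24 (4.24%) were called higher and 48 (8.48%) were called in either direction. Of the 238 mouse probes above background, 22 (9.24%) were called lower. Lower values in both TKO samples were common, at 204 of 566 probes (36%) and at 124 of the 238 above background (52.1%), so the lack of overlap alone sets the cluster apart little. The 33 probes for viral miRNAs set the background, at their mean plus 2 SD (69.2 normalized counts), and each member exceeded it in every sample. In bulk RNA, fewer cells that express a miRNA and less of it per cell cannot be told apart.

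miR-106b, the first hairpin of the transcript, stood at 2576 and 2624 normalized counts in WT replicates 1 and 2 and at 949 and 965 in TKO replicates 1 and 2. Replicates of a genotype differed by less than the counting error of a single value (1.92% to 3.33%), and the genotypes were far apart. After a pseudocount of 1 was added, the log2 difference (TKO minus WT) was -1.44 (SE 0.14, 95% interval -1.82 to -1.06, adjusted p = 0.0118 from limma). Ranked by size, this was fall number 7 among the 566 mouse probes, and number 5 among those above background.

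miR-93, which shares the miR-17 seed, had 1094 and 1146 normalized counts in the WT and 530 and 544 in the TKO replicates. Each TKO value was close to the other, and both were under the lowest WT value by more than the spread within either genotype. The log2 difference was -1.06 (SE 0.14, 95% interval -1.45 to -0.67, adjusted p = 0.0225 from limma). It was fall number 21 by size among the 566 mouse probes.

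miR-25, the last hairpin and the member with the miR-92a seed, had 3512 and 3533 normalized counts in the WT and 1908 and 2059 in the TKO replicates. Its TKO replicates lay farther apart than those of the other members, with an SD of 107 normalized counts against 14.4 in WT cells. The log2 difference was -0.83 (SE 0.15, 95% interval -1.22 to -0.44, adjusted p = 0.0454 from limma). It was fall number 35 by size, and the call was near the threshold and depended on the scaling. The difference was -0.69 with each sample divided by its sum over mouse probes (adjusted p = 0.0929 from limma) and -0.71 with the medians of probes above background aligned (adjusted p = 0.133). Over all alternatives other than leaving out a sample, its adjusted p lay between 0.000705 and 0.133.

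**Figure D1:**
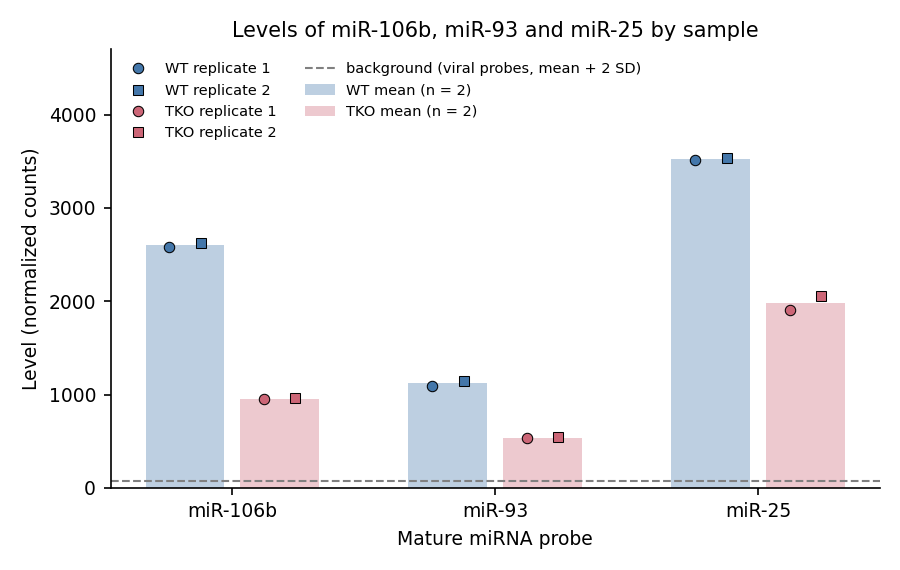
Levels of the 3 members in normalized counts (linear axis), with bars for the mean of 2 replicates, points for single samples and a dashed line at the background of 69.2 normalized counts. Both TKO points lie below both WT points for each miRNA, and the step is smallest relative to WT for miR-25 (56.3% of the WT mean).

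The zero point of these differences depends on how samples were scaled. The median log2 difference of all mouse probes was -0.12 with the scaling of the authors, 0.0089 with each sample divided by its sum and -0.00054 with medians aligned, and the median of the probes above background was -0.20 as deposited. Calls were 17 lower and 27 higher with sum scaling, and 18 lower and 27 higher with aligned medians. With sum scaling the differences were -1.31 for miR-106b and -0.93 for miR-93 (adjusted p = 0.0151 and 0.0433 from limma), and both remained called. With any 1 sample left out, limma called none of the 3 members, at differences between -1.45 and -1.43 for miR-106b, -1.09 and -1.03 for miR-93, and -0.88 and -0.77 for miR-25. With 3 samples limma called at most 14 of all mouse probes, so a call lost in this way does not show a smaller difference.

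**Figure D2:**
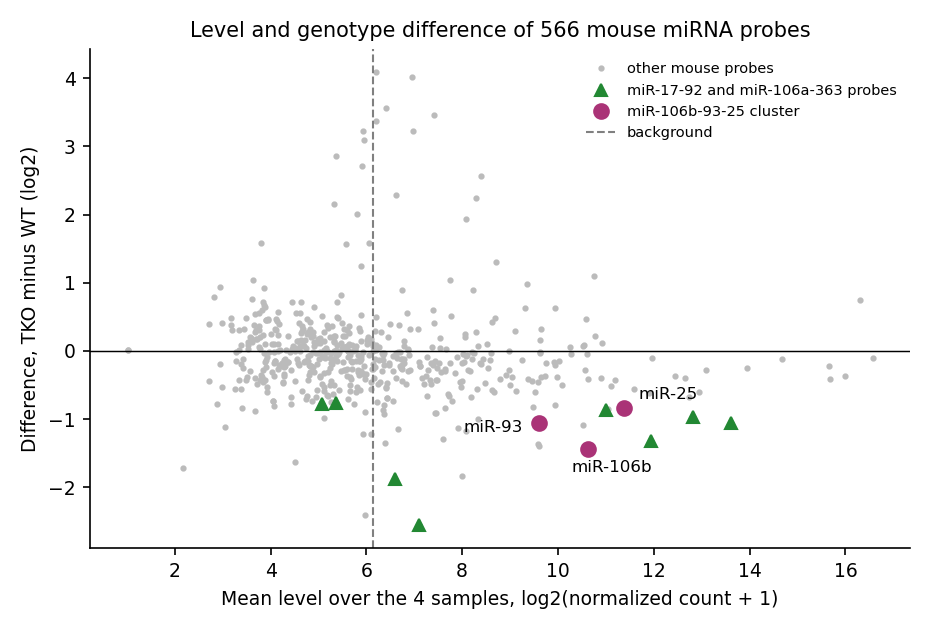
Difference between genotypes (TKO minus WT, log2) against mean level over the 4 samples (log2, with a pseudocount of 1) for 566 mouse probes. The 3 members (large circles) lie at the high end of the levels and between -1.44 and -0.83, and all 8 paralog probes (triangles) lie below 0, from -2.55 to -0.76.

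Within each sample, 1 member can be set against another with no influence of the scaling. The log2 ratio of miR-25 over miR-106b was 0.45 and 0.43 in WT samples and 1.01 and 1.09 in TKO samples, a rise of 0.61. The ratio of miR-93 over miR-106b was -1.24 and -1.19 in WT cells, against -0.84 and -0.83 in TKO cells, a rise of 0.38. For miR-25 over miR-93 it was 1.68 and 1.62 in WT cells, against 1.85 and 1.92 in TKO cells, a rise of 0.23. The TKO values of all 3 ratios lay outside the WT range by more than the spread within a genotype (the largest SD was 0.061), so that the fall was deepest for miR-106b and shallowest for miR-25 in these samples. A two-sided exact permutation test of 2 against 2 samples cannot give a p below 0.333, which is what each of the 3 ratios gave, so the difference between members did not pass a test. Probes capture their targets with different efficiency, so only the change of a ratio is read here and not its level. The study counts upstream as methylated and flat as unmethylated. It reports lower means in TKO cells for the methylated groups and no difference for the flat group. Of the members, miR-106b and miR-25 (upstream) had the deepest and the shallowest fall, and miR-93 (flat) lay between them. These are 3 single miRNAs and not group means, and the part of methylation in their fall was not tested.

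The relatives with the seed of miR-17 fell as well. The 2 other probes with this seed were those of the paralog clusters, and both were called lower. Lower calls made up 4.24% of all mouse probes and 9.24% of those above background. The probe for miR-106a and miR-17 had 6281 and 6050 normalized counts in WT and 2371 and 2591 in TKO cells, and the difference from limma was -1.31 on the log2 scale (SE 0.15, adjusted p = 0.0155). The probe for miR-20a and miR-20b had 17647 and 18573 normalized counts in WT and 8548 and 8814 in TKO cells, and the difference from limma was -1.06 on the log2 scale (SE 0.15, adjusted p = 0.0225). All 4 probes of the seed family, members included, were therefore called lower. Their median was -1.19, beside -0.12 for all mouse probes and -0.20 for those above background.

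miR-93 and miR-106b were also set against these relatives within each sample. The log2 ratio of miR-93 over the miR-20a and miR-20b probe was -4.01 and -4.02 in the WT and -4.01 and -4.02 in the TKO replicates. It changed by 0.00072 between the genotypes (exact permutation test, two-sided, p = 0.667), while both levels fell to 47.9% of WT. miR-93 and miR-20b differ at 3 of 23 positions, and whether either probe also counts the other miRNA was not tested. miR-106b over the same probe went from -2.78 and -2.82 to -3.17 and -3.19, a change of -0.38. Against the probe for miR-106a and miR-17, miR-106b changed by -0.13, from -1.29 and -1.20 to -1.32 and -1.42. The TKO values of both miR-106b ratios lay below the WT values, although for the latter the gap of 0.035 was smaller than the SD within either genotype, and the change was -0.075 without TKO replicate 2. Each of these gave p = 0.333 in the exact permutation test, the smallest that 2 against 2 samples allow.

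**Figure D3:**
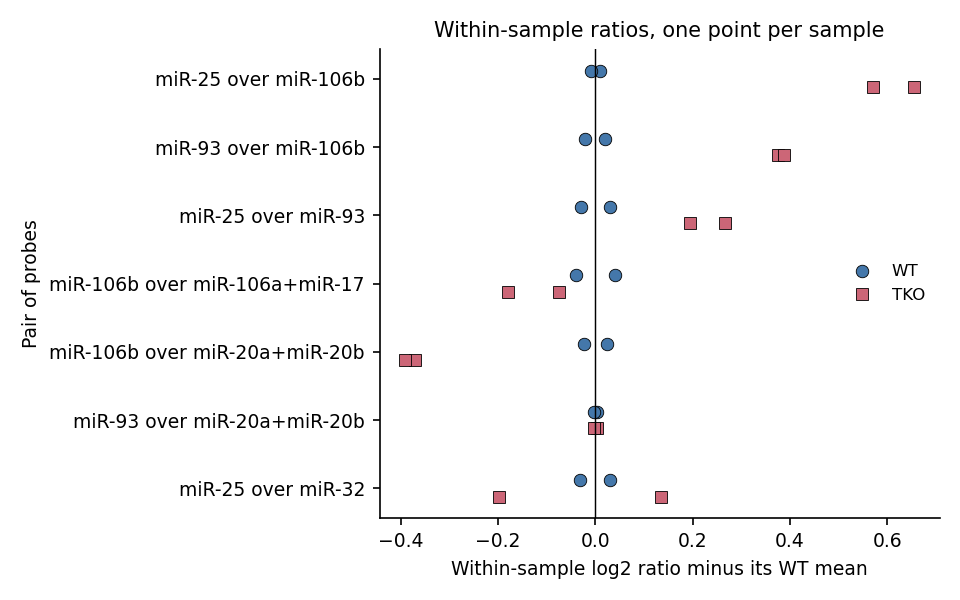
Within-sample log2 ratios of pairs of probes, each shown relative to its WT mean, with circles for WT and squares for TKO samples. miR-25 and miR-93 rose relative to miR-106b by 0.61 and 0.38, whereas miR-93 over the miR-20a and miR-20b probe stayed within 0.01 of its WT mean in all 4 samples.

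The relatives of miR-25 changed in both directions. Of the 5 other probes with its seed, limma called miR-363 lower and miR-367 higher (background 4.24% in each direction). miR-363, the last miRNA of the X-linked miR-106a-363 cluster, had 315 and 345 normalized counts in WT and 59.3 and 51.5 in TKO cells, below background in the latter, with a log2 difference of -2.55. miR-367, which is transcribed with the miR-302 miRNAs of primed pluripotent cells, had 153 and 123 in WT cells, against 471 and 589 in TKO cells, and the difference from limma was 1.93 on the log2 scale (SE 0.21, adjusted p = 0.0144). miR-32, an intronic miRNA outside these clusters, had 1309 and 1262 in WT cells, against 799 and 684 in TKO cells, and limma did not call its log2 difference of -0.80 (adjusted p = 0.0616). The TKO values of miR-32 were both below its WT values, as for miR-25. The ratio of miR-25 over miR-32 was 1.42 and 1.48 in WT cells, against 1.26 and 1.59 in TKO cells, so the genotypes overlapped. Its change of -0.032 turned to 0.13 without TKO replicate 1 and was -0.20 without TKO replicate 2. miR-92a (-0.78) and miR-92b (-0.81) had means below background and were not called.

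The miRNAs of the paralog clusters outside the 2 seed families behaved as follows. miR-18a, miR-18b, miR-19a and miR-19b carry other seeds. miR-19a had 10112 and 10069 normalized counts in WT and 5173 and 5166 in TKO cells, and the difference from limma was -0.96 on the log2 scale (SE 0.14, adjusted p = 0.0263). miR-19b had a difference of -0.86 (adjusted p = 0.0881 from limma) and was not called. miR-18b had 192 and 177 in WT cells, against 45.5 and 53.6 in TKO cells, a difference of -1.88 that was called with its TKO level below background, and miR-18a was below background throughout.

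Of the 6 probes for the miR-17-92 cluster 3 were called lower, with a median of -0.91, and of the 6 for the miR-106a-363 cluster 4 were called lower, with a median of -1.19. The share called lower was 4.24% over all mouse probes and 9.24% over those above background. The lists share 4 probes, 2 of them the joint probes and 2 for miR-19b and miR-92a, whose mature forms both clusters encode, so they are not independent. Above background were 4 of the 6 miR-17-92 probes and 5 of the 6 miR-106a-363 probes. miR-18a (64.2 and 42.7 in WT replicates) and miR-92a (51.4 and 35.9) were below it, and every probe has equal weight in the means that follow. How much these low probes add to the spread was not tested. The mean log2 level of the 3 members minus that of the miR-17-92 probes was 0.52 and 0.76 in WT cells, against 0.48 and 0.50 in TKO cells, a change of -0.15, which was smaller than the SD of 0.17 between the WT replicates. That change rests on single WT samples, at -0.27 without WT replicate 1 and -0.032 without WT replicate 2. Minus that of the miR-106a-363 probes it was 1.09 and 1.24 in WT cells, against 1.50 and 1.42 in TKO cells, a change of 0.30, with SDs of 0.10 and 0.057. miR-363 and miR-18b, the 2 probes that this list alone holds, had the deepest falls of the 8 paralog probes. With 2 samples of each genotype neither difference could pass the exact permutation test.

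**Figure D4:**
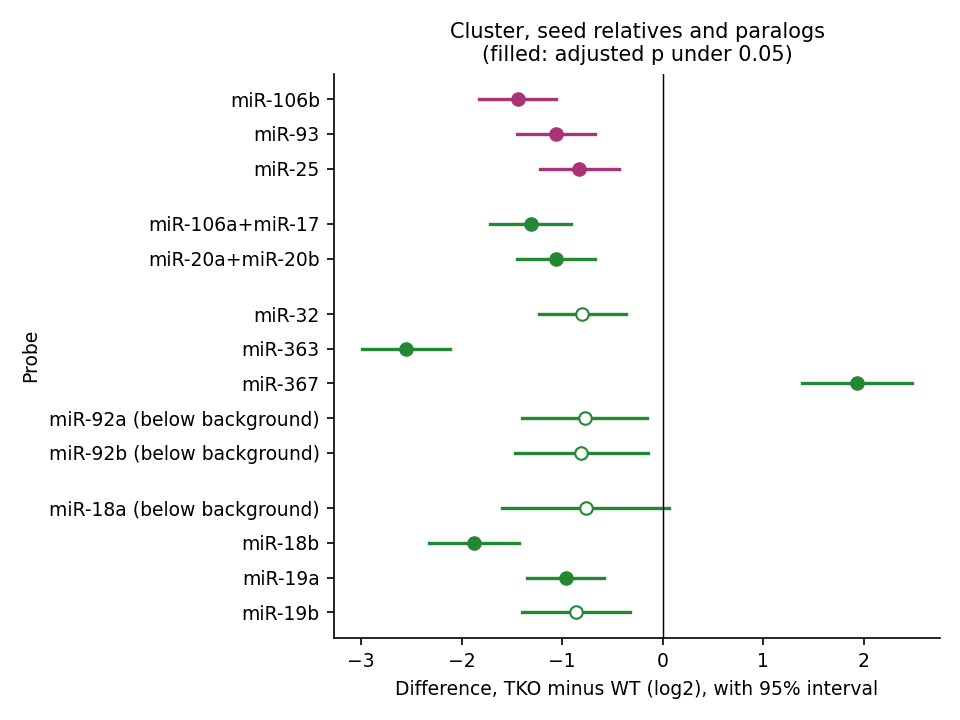
Log2 difference (TKO minus WT) with its 95% interval from limma for the 3 members (top), the other probes with the miR-17 seed, the other probes with the miR-25 seed, and the remaining paralog miRNAs. Filled points were called, and miR-367 is the only probe shown to the right of 0, at 1.93.

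The ESC miRNAs of the miR-290 and miR-302 clusters include several whose seed holds the core of the miR-17 seed shifted by 1 base. Of 7 such probes, limma called 3 higher in TKO cells (background 4.24%) and 0 lower. At an unadjusted p under 0.05 limma marked 4 as higher and 0 as lower, and voom on the recovered counts called 3 higher and 1, miR-295, lower (background 5.3% and 9.72%). Those called were miR-302a, miR-302c and miR-302d, at log2 differences of 3.46, 1.58 and 2.25. miR-302c was below background in all 4 samples. miR-291a-3p (-0.22), miR-294 (-0.11) and miR-295 (-0.37) had differences that limma did not call.

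The cell type given by the labels was checked on markers. Of 9 probes chosen for miRNAs of the miR-290 cluster, which defines mouse ESCs, 8 were above background. The list left out miR-291b-3p and miR-291b-5p of the same cluster, whose mean log2 levels were only 4.07 and 4.31. The summed level of the 9 was 332078 to 338086 normalized counts in WT and 271468 to 295001 in TKO cells. limma called 0 of the 9 and also marked 0 at an unadjusted p under 0.05, whereas voom on the recovered counts called 3 lower (background 9.72% with voom and 4.24% with limma). The let-7 miRNAs, high in differentiated cells, had sums of 1599 to 1654 in WT and 1321 to 1670 in TKO cells. The let-7a probe, near 1 normalized count in every sample, lay far under the viral probe mean of 31.5 and is not read as a level. limma called 0 of the 8, with 1 lower at an unadjusted p under 0.05, which voom called. Fibroblast markers summed to 690 to 757 in WT and 815 to 852 in TKO cells, with miR-152 called higher by limma (1 of 6, background 4.24%). The higher sum came mainly from miR-152, whose WT replicates stood at 231 and 209 normalized counts and whose TKO replicates stood at 392 and 430. Negative differences were seen for 4 of the 6 fibroblast probes, with a median of -0.066 over all 6. The lowest was miR-199a-3p (-0.69), which limma did not call (adjusted p = 0.137). Blood cell markers summed to 1277 to 1379 in WT and 1450 to 1621 in TKO cells, with miR-150 called lower by limma (1 of 5, background 4.24%). miR-142-3p carried most of that sum, with 807 and 762 normalized counts in WT and 1159 and 1278 in TKO cells. limma did not call its difference of 0.63 (adjusted p = 0.0944). Of the 5, 3 had negative differences, and voom called 1 lower and 1 higher (background 9.72% and 5.3%). The part of these cell types in the fall of the cluster was not tested.

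Apart from the paralogs, the probes whose profile over the 4 samples was most like the mean profile of the members were miR-23b, miR-150, miR-1983, miR-130b and miR-15b. Likeness was the root mean square difference between log2 values centred on their own mean, and it was 0.065 to 0.13 for these 5 beside a median of 0.48 for the 229 candidates above background. The members themselves lay at 0.029 (miR-93), 0.14 (miR-25) and 0.17 (miR-106b) from their mean. miR-23b had 456 and 452 normalized counts in WT and 215 and 238 in TKO cells. miR-130b had 1235 and 1213 in WT cells, against 473 and 480 in TKO cells, and miR-15b, whose family represses cyclins, had 2846 and 2858 in WT cells, against 1549 and 1612 in TKO cells. These 5 were picked by their values, so no test is given, and with 4 samples many probes that fell by a similar amount would look alike.

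The members share a host gene, so a promoter of Mcm7 is shown, 250 bases before to 50 after a RefSeq start site, with each CpG in capitals. E2F factors are known to drive Mcm7 and this cluster as cells enter S phase.
Mcm7 promoter (GRCm38.p6, chr5:138171834-138172133, minus strand): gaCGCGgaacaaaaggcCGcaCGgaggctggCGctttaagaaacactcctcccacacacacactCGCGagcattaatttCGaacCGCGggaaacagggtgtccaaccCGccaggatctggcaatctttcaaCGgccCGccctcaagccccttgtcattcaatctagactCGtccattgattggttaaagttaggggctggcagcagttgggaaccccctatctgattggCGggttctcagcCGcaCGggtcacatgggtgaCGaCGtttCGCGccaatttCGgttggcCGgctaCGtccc
It holds 24 CpGs, against a median of 7 over 32851 RefSeq promoter windows of 300 bases, and 6563 of the windows hold at least as many. A window at the other listed start (chr5:138171217-138171516) holds 26. Both start sites lie inside the span of Mcm7 given above, so neither window is centred on the 5′ end of that span. The E2F-type octamers TTTCGCGC and TTTGGCGC were searched on both strands. The window shown has 1 match and the other has 0, and 0.813% of all windows hold a match. The levels of Mcm7 mRNA and of the primary transcript were not analysed here, so whether the fall of the mature miRNAs went with less transcript was not tested.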

How the data were processed

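Levels of mature miRNAs in 2 WT and 2 TKO samples of R1 ESCs came from the NanoString nCounter assay. The deposited log2 values had been normalized by the authors in nSolver. The version, the handling of background and the probes used for scaling are not given in the sources used here. Values were turned back to normalized counts (2 decimals), which are whole multiples of 1 step per sample for 100% of values within 0.05 of a whole number. The recovered counts summed to 511661 to 613666 per sample. Counting errors and intervals cover counting only. A pseudocount of 1 was added and log2 taken, which understates changes of low probes, and limma (lmFit and eBayes, all 4 samples, genotype as the only term) was run over 566 mouse probes with Benjamini-Hochberg adjustment at 0.05. The p-values measure the spread between these samples. eBayes draws the variance of each probe towards a common value of all mouse probes, so the SE of a member also reflects the spread of other probes. Within-sample ratios were compared with a two-sided exact permutation test.

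The members, lists of relatives and markers, and tests were chosen with earlier results of these data known. Named were the members, called probes of each list or else those with the highest WT level, and the 5 probes nearest in profile. Other probes were added for contrast after their values were seen. Alternatives covered the pseudocount, the scaling, a filter on low values, each sample left out, a replicate block, a variance trend and voom on the recovered counts. The fit was run on simulated counts with known changes to check the code. The simulation gave all probes the same spread, unlike the data, and no result here rests on it. Sequences are from RefSeq tables (GRCm38.p6), and 442 of the 566 mouse probes matched one by name. Probes without an arm suffix were placed in a seed family if either arm carried the seed. Tools were limma 3.58.1 in R 4.3.3, and scipy 1.17.1, pandas 2.3.3, numpy 2.4.6 and matplotlib 3.10.9 in Python 3.11.15.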

Additional observations from a re-analysis of the deposited data

How the results depend on the processing

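All 3 members were lower in TKO cells under every alternative run, and 2 samples of each genotype limit what can be called. miR-106b was called in all 9 alternatives that kept the 4 samples (-1.44 to -1.31, adjusted p 0.000143 to 0.0328 from limma), and miR-93 in 8 of 9, all but the replicate block (-1.06, adjusted p = 0.0771). miR-25 was called in 4 of 9. It was not called without a pseudocount (-0.83, adjusted p = 0.0503), with sum scaling (-0.69, adjusted p = 0.0929), with viral probe scaling (-0.80, adjusted p = 0.0601), with median scaling (-0.71, adjusted p = 0.133) or with the replicate block (-0.83, adjusted p = 0.130). With each sample left out in turn, no member was called: miR-106b lay between -1.45 and -1.43 (adjusted p 0.0838 to 0.117), miR-93 between -1.09 and -1.03 (0.126 to 0.157) and miR-25 between -0.88 and -0.77 (0.171 to 0.198).

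Of the mouse probes, 48 were called, against 74 of the 238 above background when the others were left out, 84 with a variance trend, 85 with voom and 30 with the replicate block. Leaving out the probes below background shortens the list tested and also changes the variance that eBayes shares. The SE of miR-106b was then 0.106, against 0.143 with all mouse probes. With a sample left out, between 0 (limma, without TKO replicate 1 or 2, where an unadjusted p under 0.05 marked 75 probes as lower and 39 as higher, or 64 and 37) and 14 were called. Without WT replicate 1 an unadjusted p under 0.05 marked 48 as lower and 54 as higher, and without WT replicate 2 it marked 63 and 38. In the same fits 0 probes of the miR-17-92 cluster and of the miR-17 seed family, and 0 to 1 of the miR-106a-363 cluster and of the miR-25 seed family, were called. At an unadjusted p under 0.05 between 3 and 6 of the 6 miR-17-92 probes and all 4 of the miR-17 seed family were lower in each of them. With the replicate block 1 probe of the miR-17-92 cluster and 2 of the miR-17 seed family were called. The replicates share only a number: deviations of same-numbered samples correlated at -0.094 over all mouse probes and -0.24 over those above background, and a crossed pairing, added after seeing the data, gave 64 calls. The cause of these shifts was not tested. The 3 ratios between members, the 2 between the cluster and a paralog cluster, and those of miR-106b over its 2 seed relatives kept their direction with other pseudocounts and with any sample left out. The ratio of the cluster over the miR-17-92 probes lay between -0.27 and -0.032 with a sample left out. miR-93 over the miR-20a and miR-20b probe, near 0, turned to -0.00059 without a pseudocount, -0.0024 without WT replicate 2 and -0.0029 without TKO replicate 1 (highest 0.0043, without TKO replicate 2). miR-25 over miR-32 turned to 0.13 without TKO replicate 1 (lowest -0.20, without TKO replicate 2).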
